A study of Mus musculus with 3 samples.

Results

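The genes described here encode subunits of the oxidative phosphorylation machinery, measured in ureteric duct cells of the mouse embryo. They were chosen by name: every gene symbol of complex I (Nduf a, b, c, s and v), complex II (Sdha to Sdhd), complex III (Uqcr), complex IV (Cox4 to Cox8) and complex V (Atp5), with Cycs, which encodes cytochrome c. The rule found 82 genes among the 19938 that had a probe set of their own. Cox7c, Ndufb4 and Ndufb4b were read only by probe sets shared with another gene, and other genes with such names were not analysed here.

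The study profiled Hoxb7-GFP-positive cells from embryos at 10.5 days post coitum (Theiler stage 18). All embryos were of the CD-1 strain with unknown sex, and carried the transgene Tg(Hoxb7-EGFP)33Cos, in which the Hoxb7 promoter drives green fluorescent protein in the nephric duct and its derivatives. Ducts were dissected, dispersed with trypsin and sorted by fluorescence, and each of the 3 arrays received amplified RNA of 1 duct that was not pooled. There was no second group, so the test the design allows is of each gene against the background of its array. Nothing in the labels says whether the ducts came from separate embryos or litters, so a p-value covers no more than the spread among these 3 samples, and that spread may be technical.

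Oxidative phosphorylation makes most of the ATP of resting aerobic cells. Complexes I and II pass electrons from NADH and succinate to ubiquinone, complex III hands them to cytochrome c, and complex IV gives them to oxygen. Complexes I, III and IV pump protons across the inner mitochondrial membrane, and complex V, the ATP synthase, lets them return and makes ATP. A few subunits of complexes I, III, IV and V are encoded by mitochondrial DNA, and all others, including every gene counted here, by the nucleus. Several subunits of complex IV exist as isoforms that replace each other in heart and skeletal muscle, lung or testis.

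Signals are on the log2 scale, and a value with ± is a mean with its SD (n = 3 arrays). Background on each array was the 95th percentile of 1210 probe sets for olfactory and vomeronasal receptors, which belong to sensory neurons, and averaged 5.71 over the arrays. A gene passed where limma's one-sided test against that background gave a p under 0.05 after Benjamini-Hochberg adjustment over all probe sets; such genes are called above background. Many deposited values are identical on several arrays, so that SDs of 0 occur and understate the error. Probe sets differ in affinity, and signals do not rank the amounts of different transcripts.

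Nearly the whole nuclear set gave signals above background. Of the 82 genes, 77 passed (93.9%), against 56.1% of all genes. With the receptors' 99th percentile as a stricter background, 76 passed against 36.1% of all genes. With the background raised by 1 log2 unit, 75 passed against 28.3%. Other choices moved the members' count little: 79 passed at the 90th percentile (all genes 65.5%), 77 with olfactory receptors alone (53.9%), 76 with each gene's lowest probe set (55.0%), 77 with the mean of its probe sets (55.7%), and 77 with tied spreads replaced (53.9%). Leaving out array 1, 2 or 3 gave 77 each time, against 55.2%, 54.9% and 51.9% of all genes. The median signal of the 82 genes was 10.08, and that of all genes 6.04. The 5 genes that did not pass, Cox7a1, Cox7b2, Cox8b, Cox8c and Ndufa4l2, are all isoforms or paralogues that are known from muscle, testis or hypoxic cells.

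**Figure D1:**
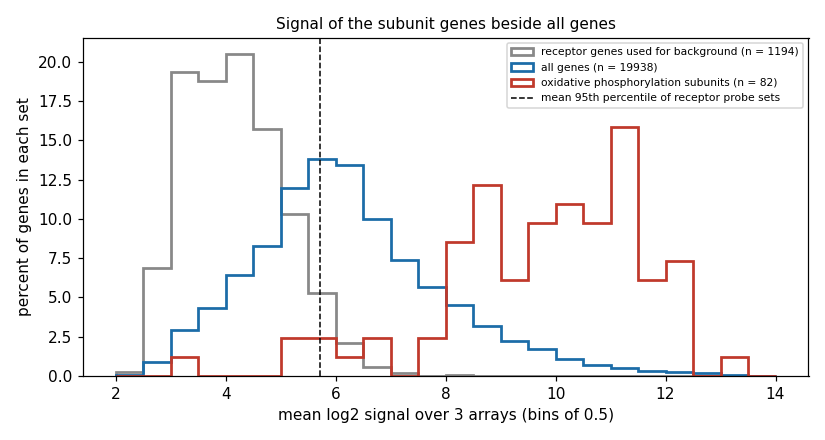
Distribution of the mean log2 signal over 3 arrays (x axis, bins of 0.5) as the percentage of genes in each set (y axis), for 82 subunit genes, all 19938 genes and 1194 receptor genes. The subunit genes have their median at 10.08 and all genes at 6.04; the dashed line marks the mean background of 5.71.

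The duct identity of the samples was checked on markers. Calb1, Gata3, Pax2, Hoxb7, Ret and Lhx1 all passed (6 of 6, against 56.1% of all genes). Their list medians were 8.06, 8.04 and 8.07 on arrays 1, 2 and 3. Markers of other cell types also gave signal. All 8 endothelial markers passed, and each was lowest on array 2. At the 99th percentile 6 duct and 7 endothelial markers passed, against 36.1% of all genes. With the background raised by 1 log2 unit, 4 and 5 did, against 28.3%. The red cell list passed in 1 of 6 cases, but the signal of the embryonic globin gene Hbb-y was 10.02 on array 1, and 5.31 and 5.45 on the others. The metanephric mesenchyme list passed in 2 of 6 cases and the muscle list in 4 of 9, both below the 56.1% of all genes; at the 99th percentile 1 and 2 passed, and with the background raised by 1 log2 unit 1 and 0.

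In complex I, the NADH dehydrogenase, 34 of 35 genes passed, against 56.1% of all genes. Of the catalytic core, which holds the flavin and the iron-sulphur clusters, 6 nuclear genes were measured (Ndufv1, Ndufv2, Ndufs1, Ndufs3, Ndufs7 and Ndufs8), and all 6 passed. Ndufv1, whose product binds NADH and flavin, read 8.66, 8.30 and 8.65 on arrays 1, 2 and 3. Ndufs1, the largest iron-sulphur subunit, read 9.04, 9.28 and 9.24. Both genes stayed far above background on every array. Ndufs7 and Ndufs8, whose products carry the iron-sulphur clusters nearest to ubiquinone, had the lowest core signals, 7.93 ± 0.06 and 8.09 ± 0.35. Ndufs8 read 8.22, 7.69 and 8.36, low on array 2.

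The accessory subunits of complex I form the shell around this core. Their highest means belonged to Ndufa4, at 11.90, 11.90 and 11.74, to Ndufa1, at 11.40, 11.49 and 11.31, and to Ndufc2, at 11.34, 11.47 and 10.86. The product of Ndufa4 is now regarded as a subunit of complex IV, although its symbol places it here. The only gene of this complex that did not pass was Ndufa4l2, a paralogue of Ndufa4 known to be induced in hypoxia. It read 5.29, 5.34 and 5.29, below the cutoff on each array, with a mean 0.40 log2 units under it (limma, adjusted p = 1).

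**Figure D2:**
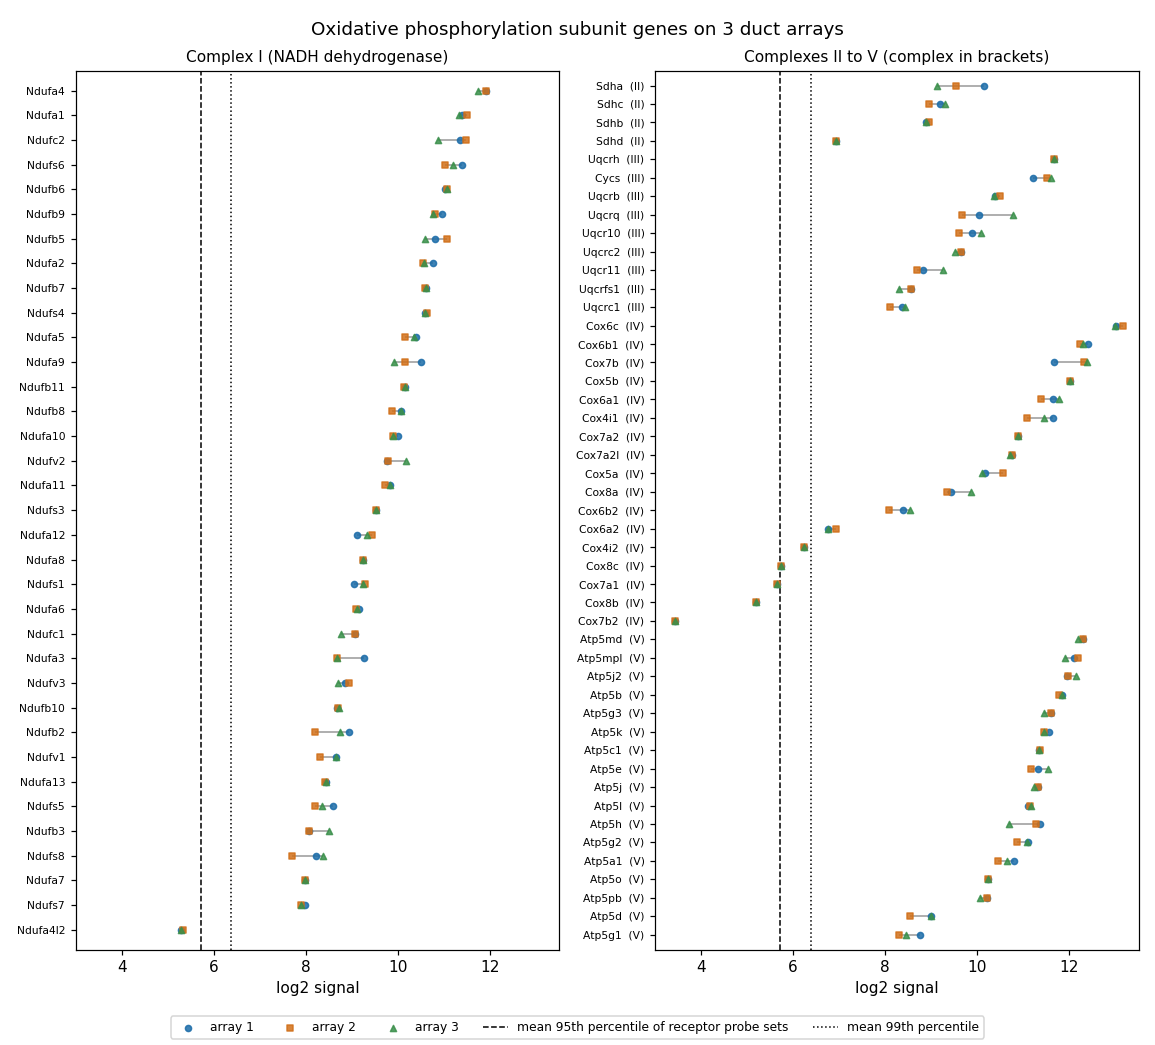
Log2 signal (x axis) of each of 82 subunit genes (rows) on arrays 1, 2 and 3 (points), with complex I on the left and complexes II to V on the right, each complex ordered by mean. Grey bars join the lowest and highest array; 77 genes pass, and the 5 that do not pass lie left of the dashed line, the mean background of 5.71, or, for Cox8c, 0.03 log2 units right of it.

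All 4 genes of complex II, the succinate dehydrogenase, passed, against 56.1% of all genes. This enzyme also belongs to the citric acid cycle and has no subunit from mitochondrial DNA. Sdha, the flavoprotein that oxidises succinate, read 10.14 on array 1, 9.54 on array 2 and 9.13 on array 3 (limma, adjusted p = 0.00049 against background). Its range of 1.01 log2 units was among the largest of the 82 genes, with array 1 highest. The red cell list had medians of 6.22, 5.53 and 5.59 on arrays 1, 2 and 3. Its 3 genes with 3 different values, all globin genes, were also highest on array 1. Gata1 read 6.03, 6.03 and 6.12, and Alas2 and Klf1 held the same value on all 3 arrays. The part of red cells in the Sdha values was not tested. Sdhb, the iron-sulphur subunit, read 8.90, 8.95 and 8.90, and varied little. The membrane anchors were Sdhc, at 9.19, 8.95 and 9.31, and Sdhd, at 6.93 on all 3 arrays. The Sdhd value was also held by 12 to 15 other genes on the same array, the signal lay 1.22 log2 units above the mean cutoff, and the gene passed at all backgrounds tried.

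In complex III and cytochrome c, all 9 genes passed, against 56.1% of all genes. Uqcrc1 and Uqcrc2, the large core proteins on the matrix side, read 8.30 ± 0.18 and 9.60 ± 0.08. Uqcrfs1, the Rieske iron-sulphur protein, read 8.56, 8.56 and 8.29. The highest means belonged to the hinge protein gene Uqcrh, at 11.67, 11.67 and 11.66, to Cycs, and to Uqcrb, a small subunit, at 10.39, 10.50 and 10.36. Cytochrome c, besides carrying electrons, starts the caspase cascade when it leaves the mitochondrion. Cycs read 11.22, 11.51 and 11.61, lowest on array 1. On the lowest of its 3 probe sets, with a mean of 5.12, it did not pass, and the count was then 8 of 9. Uqcrq, a small subunit of the ubiquinone site, read 10.03, 9.66 and 10.78, the widest range of the 82 genes (1.13 log2 units), with array 3 highest. Cardiac actin, Actc1, did not pass but had the same order at 7.67, 6.36 and 9.65. The other muscle markers with 3 different values did too, Acta1 at 6.62, 6.12 and 7.40 and Tnnt2 at 8.26, 7.06 and 8.54. Over the whole muscle list, of which 4 of 9 passed, the mean deviation from each gene's own mean was 0.01, -0.36 and 0.35 on arrays 1, 2 and 3. The 6 endothelial markers with 3 different values were also all lowest on array 2, with array 3 highest for 4 and array 1 for 2. The part of muscle-type or endothelial cells in the Uqcrq values was not tested. In these bulk samples fewer cells of a type and less RNA per cell cannot be told apart.

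In complex IV, the cytochrome c oxidase, 13 of 17 genes passed, 12 of them at the 99th percentile (all genes 56.1% and 36.1%). The 4 that did not pass were all tissue isoforms. Cox6c had the highest mean of all 82 genes, at 13.01, 13.16 and 13.00. Cox6b1, which bridges the dimer on the outer face, read 12.39, 12.24 and 12.30. Cox7b read 11.66 on array 1 and 12.32 and 12.38 on arrays 2 and 3, so that array 1 was lower by more than the gap between the others. The subunits that have a single nuclear gene in mammals passed too. Cox5a read 10.16, 10.55 and 10.10, and Cox5b, the zinc-binding subunit, 12.02 on all 3 arrays after rounding. Cox7a2l, whose product joins complexes III and IV into supercomplexes, read 10.74, 10.74 and 10.71.

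All 17 genes of complex V, the ATP synthase, passed, also with the background raised by 1 log2 unit (all genes 56.1% and 28.3%). Their median signal was 11.29. In the catalytic head, Atp5b (beta) read 11.84, 11.77 and 11.84, and Atp5a1 (alpha) 10.79, 10.44 and 10.65. The central stalk genes were Atp5c1 (gamma) at 11.35 ± 0.01, Atp5e (epsilon) at 11.33 ± 0.19 and Atp5d (delta) at 8.84 ± 0.27. Atp5d was lowest on array 2, at 8.53. Genes of the peripheral stalk, which holds the head still, read 10.24 for Atp5o on all 3 arrays, 11.29 ± 0.05 for Atp5j, 10.16 ± 0.09 for Atp5pb and 11.11 ± 0.36 for Atp5h. Small membrane subunits had the highest means: Atp5md at 12.30, 12.30 and 12.18, Atp5mpl at 12.09, 12.19 and 11.91, and Atp5j2 at 11.96, 11.96 and 12.13.

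In each isoform set of complex IV the widely expressed gene passed at every background tried. Of the partners restricted to muscle, testis or lung, Cox6b2 did so too, Cox6a2 and Cox4i2 passed at some, and Cox7a1, Cox7b2, Cox8b and Cox8c did not pass at the 95th percentile. Of 19 isoform genes 14 passed, 13 at the 99th percentile and 12 with the background raised by 1 log2 unit, against 56.1%, 36.1% and 28.3% of all genes. Since probe sets differ in affinity, each gene is set only against background and not against its partner.

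Cox7a1, the heart and skeletal muscle form of Cox7a, read 5.64 on all 3 arrays and did not pass, while the widely expressed Cox7a2 read 10.88 on all 3 arrays. Cox8b, the muscle form of Cox8, read 5.18 on all 3 arrays, 0.53 log2 units under the mean cutoff, and the widely expressed Cox8a read 9.42, 9.34 and 9.86. Cox6a2, the muscle form of Cox6a, did pass, at 6.76, 6.92 and 6.76. It stayed above the 99th percentile but not above the background raised by 1 log2 unit (limma, adjusted p = 0.11). Its value on arrays 1 and 3 was shared with 20 and 29 other genes. The widely expressed Cox6a1 read 11.65, 11.39 and 11.77. Of the muscle markers, the contractile genes Ttn and Myh6 did not pass, with 5.26 and 5.23. Tnnt2 passed at 7.95 ± 0.79 and Ckm at 6.61 ± 0.12. On array 2, where Cox6a2 read highest, the muscle list deviated by -0.36 log2 units from its genes' means, mostly through Actc1, Acta1 and Tnnt2. The part of muscle-type cells in the Cox6a2 signal was not tested.

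Among the testis forms, Cox6b2 passed at every background tried, with 8.38, 8.07 and 8.53 on arrays 1, 2 and 3, or 2.62 log2 units above the mean cutoff (limma, adjusted p = 0.0002). Cox7b2 read 3.43 on all 3 arrays and Cox8c 5.74 on all 3 arrays, and neither passed (limma, adjusted p = 1 and 0.095). Cox4i2, a form known from lung and from hypoxic cells, read 6.23 on all 3 arrays and passed, but it lay 0.15 log2 units under the 99th percentile. The widely expressed Cox4i1 read 11.65, 11.08 and 11.44. Several of these low values were shared exactly with other genes: 48 genes had the 3 values of Cox7a1, 36 those of Cox7b2 and 68 those of Cox8c. Cox8b shared its values with 0 other genes.

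The c ring of complex V is encoded by Atp5g1, Atp5g2 and Atp5g3, which differ in their import sequences and give the same mature protein. All passed: Atp5g1 read 8.76, 8.31 and 8.45, Atp5g2 11.11, 10.87 and 11.08, and Atp5g3 11.60, 11.60 and 11.44. Atp5g1 had the lowest mean of complex V, and still lay 2.80 log2 units above the mean cutoff.

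**Figure D3:**
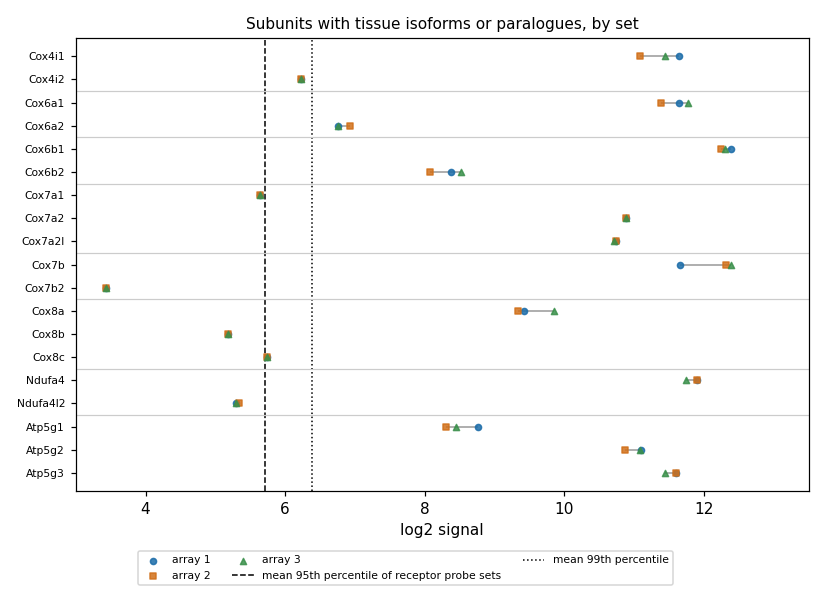
Log2 signal (x axis) of 19 genes in 8 sets of isoforms or paralogues (rows, sets separated by lines) on arrays 1, 2 and 3 (points); the dashed and dotted lines mark the mean 95th and 99th percentile of the receptor probe sets, 5.71 and 6.38. Cox7a1, Cox7b2, Cox8b, Cox8c and Ndufa4l2 do not pass, and Cox4i2 lies between the lines.

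Promoter sequence was not used to choose the genes and was compared as a description. RefSeq windows (GRCm38.p6) from 250 bases before to 50 bases after the start were found for 67 of the 82 genes. The 250 bases before the start are shown for 3 isoform pairs, the widely expressed gene first, because they let the pairs be compared by eye; capitals mark CpG dinucleotides, the sites of DNA methylation, which cluster in the promoters of broadly expressed genes.
Cox7a2: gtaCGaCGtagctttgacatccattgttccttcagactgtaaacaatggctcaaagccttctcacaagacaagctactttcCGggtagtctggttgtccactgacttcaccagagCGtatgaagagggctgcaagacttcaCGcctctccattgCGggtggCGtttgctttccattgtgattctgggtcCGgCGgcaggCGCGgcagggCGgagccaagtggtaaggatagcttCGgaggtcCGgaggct
Cox7a1: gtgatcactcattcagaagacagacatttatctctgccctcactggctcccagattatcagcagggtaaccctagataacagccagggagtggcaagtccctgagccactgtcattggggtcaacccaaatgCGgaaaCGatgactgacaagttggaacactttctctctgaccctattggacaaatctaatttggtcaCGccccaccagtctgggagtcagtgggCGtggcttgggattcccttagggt
Cox8a: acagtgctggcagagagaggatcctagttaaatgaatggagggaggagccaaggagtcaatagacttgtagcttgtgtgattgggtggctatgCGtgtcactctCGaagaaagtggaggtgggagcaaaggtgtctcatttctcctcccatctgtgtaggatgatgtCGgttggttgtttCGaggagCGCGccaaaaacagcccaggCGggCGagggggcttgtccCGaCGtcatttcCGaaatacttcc
Cox8b: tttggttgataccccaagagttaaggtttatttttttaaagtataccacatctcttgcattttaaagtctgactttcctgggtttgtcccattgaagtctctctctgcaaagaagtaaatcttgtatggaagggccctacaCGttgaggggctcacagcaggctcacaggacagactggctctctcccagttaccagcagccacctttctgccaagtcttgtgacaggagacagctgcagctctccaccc
Cox6b1: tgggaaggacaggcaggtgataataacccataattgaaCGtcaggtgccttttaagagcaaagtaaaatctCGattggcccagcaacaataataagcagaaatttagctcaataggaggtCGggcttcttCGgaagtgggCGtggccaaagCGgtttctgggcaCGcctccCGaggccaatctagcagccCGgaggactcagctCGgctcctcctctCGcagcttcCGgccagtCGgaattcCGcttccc
Cox6b2: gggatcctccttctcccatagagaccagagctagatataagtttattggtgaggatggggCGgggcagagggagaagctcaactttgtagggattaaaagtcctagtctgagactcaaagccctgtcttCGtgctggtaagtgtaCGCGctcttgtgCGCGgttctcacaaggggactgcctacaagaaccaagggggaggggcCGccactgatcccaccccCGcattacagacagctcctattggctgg
These lie at chr9:79759854-79760103, minus strand, for Cox7a2; chr7:30183921-30184170, plus strand, for Cox7a1; chr19:7217617-7217866, minus strand, for Cox8a; chr7:140900447-140900696, minus strand, for Cox8b; chr7:30626115-30626364, minus strand, for Cox6b1; and chr7:4753095-4753344, minus strand, for Cox6b2. They hold 14 CpGs in Cox7a2 against 4 in Cox7a1, 11 in Cox8a against 1 in Cox8b, and 14 in Cox6b1 against 8 in Cox6b2. The other pair of complex IV with both windows, not printed, ran the other way, with 5 CpGs in the 300 bases of Cox7b and 10 in those of Cox7b2.

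Over windows of 300 bases, the 67 genes had a median of 19 CpGs. All 15614 measured genes with a window had a median of 15, those above background 21 and those not above it 5. The 3 genes with a window that did not pass held 7 (Cox7a1), 10 (Cox7b2) and 2 (Cox8b). Few CpGs were also found at a gene that passed: Cox7b, with a mean signal of 12.12, held 5.

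A pair of motifs known from promoters of respiratory genes was searched on both strands. The site of nuclear respiratory factor Nrf1, spelled GCGCANGCGC, was present in 16 of the 67 genes (23.9%), against 7.85% of all measured genes with a window and 11.3% of those above background. Complex V held it in 6 of 15 genes and complex IV in 1 of 12, Cox6a1. The core site of Ets factors such as Gabpa, spelled CCGGAAG, was present in 17 genes (25.4%), against 13.6% and 19.5%. Overlap between motifs was not counted. TATAAA, searched on the strand of the gene only, was present in 3 genes (4.48%), Cox8b, Ndufa3 and Ndufs7. The shares were 8.71% of measured genes and 5.43% of those above background. The Cox8b match is not within the 250 bases printed, so it lies wholly or partly in the 50 bases after the start. Over all 32851 windows of the table the shares were 4.60%, 8.86% and 8.32%. A gene with several windows counts as holding a motif if any window does.

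Between arrays, 11 of the 82 genes held the same value on all 3 arrays (13.4%), against 50.8% of all genes and 40.6% of those above background. Among genes whose values were not all tied, the median SD was 0.12 log2 units, and 0.13 over all such genes above background. A range over 0.5 log2 units was found for 12 genes (14.6%), against 13.8% of genes above background. A range over 1 was found for Sdha and Uqcrq, or 2 genes, against 3.94% of genes above background. Next came Ndufb2, an accessory subunit of the membrane arm, at 8.94, 8.19 and 8.74, and Cox7b.

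Array 2 was most often the lowest. Of 46 genes with 3 different values, 24 were lowest on array 2 (52.2%), against 32.4% of the 3157 genes above background with 3 different values. The differences were small: averaged over the 82 genes, array 2 lay 0.04 log2 units under the gene's mean, and array 1 lay 0.04 above it. The complexes had different orders. Complex III lay 0.13 above the mean on array 3 and 0.10 under it on array 2, and Uqcrq gave the largest part of both. Complex II lay 0.14 above the mean on array 1, of which Sdha gave the most. The endothelial markers were also lowest on array 2, with medians of 8.26, 7.44 and 8.31 on arrays 1, 2 and 3. The muscle list deviated by -0.36 and the duct list by -0.08 log2 units from its genes' means on array 2, and in each list the 3 genes with 3 different values were lowest there. The part of these cells in the subunit values was not tested.

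**Figure D4:**
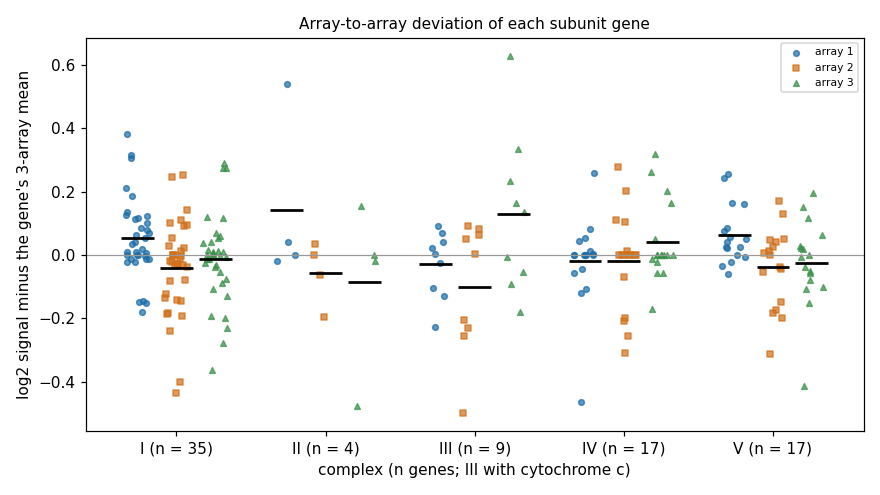
Deviation of each subunit gene on each array from that gene's mean over 3 arrays (y axis, log2 units), by complex (x axis) and array (colour and marker); black bars are means over the genes of the complex. Mean deviations stay between -0.10 and 0.14, with Sdha and Uqcrq among the widest points.

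Each gene is given by the probe set of highest mean, and 17 of the 82 genes had more than 1. For 16 of these every probe set passed. The exception was Cycs, whose other probe sets read 10.75, 11.07 and 11.17, and 4.84, 5.06 and 5.45, the last of these under the cutoff at a mean of 5.12. The gap between a gene's highest and lowest probe set ran from 0.03 log2 units for Atp5g2 to 2.40 for Ndufb11 and 6.33 for Cycs. Several array patterns recurred over a gene's probe sets. The probe sets of Cox7b read 11.66, 12.32 and 12.38, and 10.17, 10.89 and 10.91, both lowest on array 1. Those of Atp5h all read lowest on array 3, at 10.69, 9.13 and 9.09, against 11.28, 9.85 and 9.66 on array 2. Near-identical copies limit these readings: the reference table lists 18 pseudogenes with names of these families, and it was not tested which copy a probe set reads. Probe sets shared by Cox7c and Gm12338 read 12.62 to 12.83 on average, and those shared by Ndufb4 and Ndufb4b 9.60 and 9.70.

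**Figure D5:**
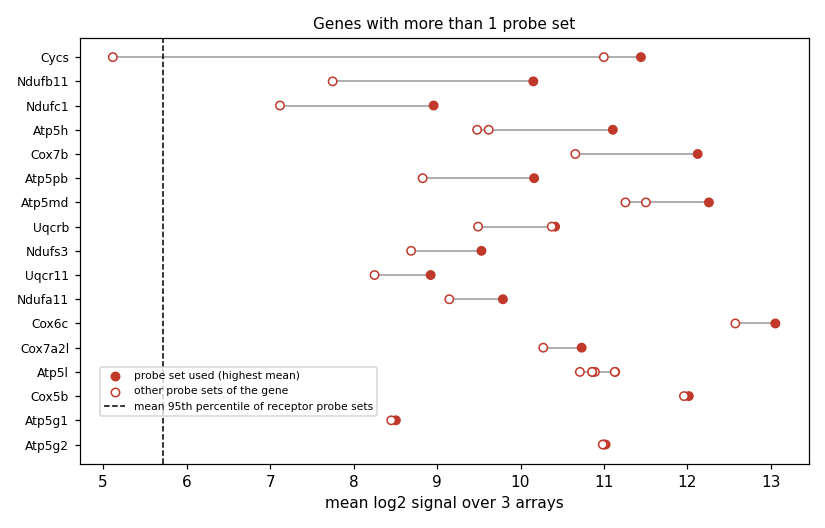
Mean log2 signal over 3 arrays (x axis) of every probe set of the 17 subunit genes with more than 1 (rows, ordered by the gap between highest and lowest); filled points are the probe sets used. The lowest Cycs probe set, at 5.12, lies left of the background line.

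Other genes of energy metabolism, most of them mitochondrial and 21 of them glycolysis genes, were taken from lists. These lists were chosen with earlier results of these data known. Of the 109 genes 99 passed (90.8%), against 56.1% of all genes. At the 99th percentile 80 did, and with the background raised by 1 log2 unit 68, against 36.1% and 28.3% of all genes. The mitochondrial DNA genes measured, those for subunit 2 of complex IV and for Nd3 of complex I, read 12.53 ± 0.23 and 11.56 ± 0.14 and both passed. Cyc1, cytochrome c1 of complex III, passed at 9.51 ± 0.18, and Cyct, the testis cytochrome c, did not, at 4.34 on all 3 arrays. Among testis forms, then, Cyct, Cox7b2 and Cox8c did not pass and Cox6b2 did.

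Assembly factors, which build the complexes without staying in them, passed in 39 of 41 cases, in 31 at the 99th percentile and in 25 with the background raised by 1 log2 unit (all genes 56.1%, 36.1% and 28.3%). The copper chaperone gene Cox17 had the highest mean, 10.93 on all 3 arrays. Uqcc1 at 5.53 ± 0.04 and Lyrm7 at 4.39 on all 3 arrays, both factors of complex III, did not pass. All 15 genes of the citric acid cycle and pyruvate dehydrogenase passed, from Dlat at 6.94 on all 3 arrays to Dld at 10.18 ± 0.11. Of 21 glycolysis genes 20 passed, against 13 at the 99th percentile and 10 with the raised background. Hk1, which phosphorylates glucose, read 12.10 ± 0.18, and the testis lactate dehydrogenase gene Ldhc, at 5.03 ± 0.03, did not pass.

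Regulators of mitochondrial genes passed in 15 of 17 cases, against 56.1% of all genes. At the 99th percentile 12 regulators did, and with the raised background 9, against 36.1% and 28.3% of all genes. Hif1a, the oxygen-regulated factor, had the highest mean at 8.96 ± 0.09, and Esrrb the lowest at 5.13 ± 0.20, which did not pass, nor did Ppara at 5.21 on all 3 arrays. Named after their values were seen, Ppargc1a, a coactivator of mitochondrial biogenesis, read 8.60, 8.60 and 8.42, and Gabpa read 8.85 on all 3 arrays. Carriers and uncoupling proteins passed in 7 of 11 cases (63.6%), a share near the 56.1% of all genes, and in 6 with the raised background. Vdac2, an outer membrane channel, read 11.20 ± 0.06. Slc25a31, the testis form of the ATP carrier, read 3.71 ± 0.01, and with the muscle creatine kinase gene Ckmt2, Ucp1 and Ucp3 it did not pass.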

How the data were processed

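RNA of 3 Hoxb7-GFP-sorted duct samples was amplified and hybridised to Affymetrix mouse arrays, 1 array per sample. The deposited table holds log2 signals that the authors summarised for 35557 probe sets. The submitters' processing notes name Affymetrix Expression Console, and the sources used here give no algorithm, version or filter. The log2 scale was read from the values. By the platform annotation, 21789 probe sets had 1 symbol; 1621 had several and 12147 none, and these were not used. Of the first, 21698 matched the reference gene table (GRCm38.p6) by Entrez number, with 0 symbols changed. No build is named for the array. Where a gene had several probe sets, that of highest mean stood for it.

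Values minus the array's cutoff (95th percentile of 1210 receptor probe sets: 5.70, 5.73 and 5.71) entered an intercept-only fit (limma 3.58.1 under R 4.3.3, moderated by eBayes), tested one-sided and adjusted by Benjamini-Hochberg over 21789 probe sets. About 5% of receptor probe sets exceed the cutoff by construction, and other genes have no known false rate. Where a probe set repeats its value on each array, its spread in the fit stems from the cutoffs and moderation alone, which makes its p smaller than it should be. Precision is limited by the number of arrays.

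The members and gene lists were chosen with earlier results of these data known. Named are all isoform genes, per complex the 3 highest and 2 lowest means, all genes that did not pass, the 5 widest ranges, Cox6c, Sdha, and the highest and lowest gene of each related list; others are named for their role, after their values were seen. The complex I core was listed likewise. Alternatives were other percentiles, a raised cutoff, olfactory receptors alone, other probe sets per gene, tied spreads replaced, quantile normalization, and each array left out.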

Additional observations from a re-analysis of the deposited data

How the results depend on the processing

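The counts of genes above background for the 82 genes, each complex, the isoforms and the 109 related genes together stayed within 1.5 times of those reported under all 11 alternatives. Over these the count for the 82 genes ran from 75 to 79, and it was 77 without each array in turn. The count for the 109 related genes went from 99 to 68 with the cutoff 1 log2 unit higher. Single related lists moved more: with the cutoff 1 log2 unit higher, assembly factors went from 39 to 25, glycolysis genes from 20 to 10 (13 at the 99th percentile) and regulators from 15 to 9. So did the count over all 19938 genes: 11194 as reported, 7193 at the 99th percentile, 13052 at the 90th, and 5647 above the cutoff plus 1 log2 unit. Among the 82 genes, calls changed for Cox4i2, Cox6a2, Cox7a1, Cox8c and Cycs only. Cox4i2 lay -0.15 log2 units from the cutoff at the 99th percentile and -0.48 from the raised cutoff. Cox8c lay at -0.64 and -0.97 there, at -0.045 with olfactory receptors alone, and at 0.35 at the 90th percentile, where it passed. Cox7a1 also passed at the 90th percentile, at 0.24. Cox6a2 lay 0.10 above the raised cutoff and did not pass. With the lowest probe set of each gene, Cycs lay at -0.60. Without array 3, limma estimated a common spread for all genes, so that fit does not measure the spread of each gene. Signal over background limits the genes near the cutoff. No paired analysis was possible because the series has 1 group.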
